A study of Mus musculus with 7 samples.

Results

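The 10 genes examined here encode inhibitory checkpoints of T cells: the receptors Pdcd1 (PD-1), Ctla4, Lag3, Tigit, Btla, Cd160, Havcr2 (TIM-3) and Vsir (VISTA), and Cd274 (PD-L1) and Pdcd1lg2 (PD-L2), the ligands of PD-1. They were chosen by name, with earlier results of these data known. All 10 were found among the 22629 rows of the count table by matching Ensembl identifiers to mouse symbols. The RNA came from 7 s/c tumors of 1242 cells, a mouse PDA (pancreatic ductal adenocarcinoma) line from the tumor of a KPC mouse, in which Cre is driven by the Pdx1 promoter. Host mice were of the C57BL/6 strain, and all tumors were harvested 2 weeks after inoculation. In 3 tumors the cancer cells carried SpCas9 and a scrambled guide (sgScramble tumors 1, 4 and 5), and in 4 tumors sgScramble cells also expressed ovalbumin kept in the cytoplasm, from a doxycycline-inducible vector (icOVA tumors 15, 16, 18 and 2). All cells of both groups thus carried SpCas9 and the scrambled guide. The study's methods describe a larger inoculum and doxycycline food from day 0 for the ovalbumin-inducible tumors, and sorting and single-cell cloning of the transduced cells. Whether the mice of the 3 sgScramble tumors received doxycycline, and whether their cells were a clone, is not stated in the sources used here, so that ovalbumin, doxycycline, inoculum and clone cannot be told apart. It is also not stated whether the cells of the sgScramble tumors carried the ovalbumin vector, and these tumors had 85 to 151 counts of OVA (ovalbumin). The comparison asks how the checkpoint genes of icOVA tumors differed from those of sgScramble tumors.

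Inhibitory checkpoints are surface proteins that restrain T cells after they have met antigen. PD-1, CTLA-4, LAG-3, TIGIT and TIM-3 are induced on activated T cells and stay high on T cells that meet antigen for long, BTLA and CD160 bind HVEM, and VISTA is carried by myeloid cells as well as by T cells. PD-L1 is made by cancer cells, macrophages and other cells, and interferon gamma induces it, whereas PD-L2 is made mainly by macrophages and dendritic cells. Antibodies to PD-1, PD-L1, CTLA-4 and LAG-3 are used against cancer, and pancreatic cancer is known for its weak response to them.

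The library totals ran from 30904855 to 37510591 counts. OVA, which served to check the labels, had 85 to 151 counts in sgScramble tumors and 3413 to 10750 counts in icOVA tumors. No tumors of a group had counts within sampling noise of each other. Each tumor is a sample of its own in the labels, which do not state that each came from its own mouse, so the p values measure the spread between these tumors. Genes with too few counts were removed with edgeR's filterByExpr function, and all 10 checkpoint genes were among the 17489 that remained. A gene is called here when its adjusted p is below 0.05 in the quasi-likelihood test of edgeR, with the Benjamini-Hochberg adjustment over all of these genes. Expression is in CPM, counts scaled to the size of the library after TMM scaling. In these bulk tumors, fewer cells of a type and less RNA per cell cannot be told apart.

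The regions before the starts of these genes are shown because 9 of the 10 genes were higher in every icOVA tumor than in every sgScramble tumor, and the letters let a reader see what their starts share. RefSeq promoter windows on GRCm38.p6 were found for 9 of the 10 genes, and the 250 bases before the start are used. Of these genes, 6 have a window without annotated exon at the first start listed, and the windows with a match are printed together with that of Pdcd1, which had none. Both strands were searched for 4 short motifs: GAAANNGAAA, the core of the interferon response element, TTCNNNGAA, the gamma-activated sequence, GGAAAA, the core bound by NFAT, and TGANTCA, bound by AP-1. Of 32851 promoter windows of the same length, 2.98% held the first, 7.02% the second, 20.4% the third and 6.75% the last. The sequences run 5′ to 3′ toward the start, with the matches in capitals.
Ctla4, chr1:60908775-60909024, plus strand, NFAT core letters on the strand opposite to the gene, from 145 to 140 bases before the start: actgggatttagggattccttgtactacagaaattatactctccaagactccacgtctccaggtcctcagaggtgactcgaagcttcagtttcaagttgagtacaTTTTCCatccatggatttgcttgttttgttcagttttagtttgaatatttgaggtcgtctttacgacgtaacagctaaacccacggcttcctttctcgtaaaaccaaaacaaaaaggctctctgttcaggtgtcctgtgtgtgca
Tigit, chr16:43664185-43664434, minus strand, NFAT core letters on the strand opposite to the gene, from 14 to 9 bases before the start: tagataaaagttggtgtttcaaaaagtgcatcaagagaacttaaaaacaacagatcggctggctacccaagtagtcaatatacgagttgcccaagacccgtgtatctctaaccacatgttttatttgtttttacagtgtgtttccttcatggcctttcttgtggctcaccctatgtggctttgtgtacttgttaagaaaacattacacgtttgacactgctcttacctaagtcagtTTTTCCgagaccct
Pdcd1lg2, chr19:29410669-29410918, plus strand, NFAT core letters on the strand of the gene, from 22 to 17 bases before the start: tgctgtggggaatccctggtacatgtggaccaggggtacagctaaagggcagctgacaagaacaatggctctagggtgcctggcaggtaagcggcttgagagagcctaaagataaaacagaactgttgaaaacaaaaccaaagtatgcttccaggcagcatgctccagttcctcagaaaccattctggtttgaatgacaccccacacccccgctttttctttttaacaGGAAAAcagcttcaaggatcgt
Havcr2, chr11:46454681-46454930, plus strand, AP-1 letters from 200 to 194 bases before the start: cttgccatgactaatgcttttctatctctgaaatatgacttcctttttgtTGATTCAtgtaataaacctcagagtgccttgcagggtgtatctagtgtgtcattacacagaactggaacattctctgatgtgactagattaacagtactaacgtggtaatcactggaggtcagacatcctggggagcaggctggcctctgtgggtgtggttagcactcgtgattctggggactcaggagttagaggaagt
Pdcd1, chr1:94052554-94052803, minus strand, no match: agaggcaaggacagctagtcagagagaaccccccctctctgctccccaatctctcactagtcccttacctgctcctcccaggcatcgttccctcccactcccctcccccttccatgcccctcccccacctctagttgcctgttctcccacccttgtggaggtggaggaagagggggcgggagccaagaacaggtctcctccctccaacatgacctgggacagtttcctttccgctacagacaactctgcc
The windows of Vsir, Btla and Cd274 and the first window of Cd160 held none of the 4 motifs, and a second start of Cd160 had a match to the gamma-activated sequence from 234 to 226 bases before it. NFAT core letters thus stood before 3 of the 9 genes, a motif that is also found in 20.4% of all windows. Among these 3 was Pdcd1lg2, the gene that was not higher in every icOVA tumor. A match describes letters and not binding.

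Checkpoint gene expression was higher in icOVA tumors. Of the 10 genes, 7 were called higher and 0 lower, while 3.36% of all genes tested were called higher and 2.54% lower. For the lower direction, 0 of the 10 genes had an unadjusted p below 0.05 in edgeR's test, and DESeq2 and limma-voom also called 0. The genes called were Ctla4, Pdcd1, Lag3, Btla, Tigit, Cd274 and Havcr2, with log2 fold changes from 1.52 down to 0.86, and the median over the 10 genes was 1.05, against -0.00 over all genes. In 9 of the 10 genes the lowest icOVA tumor lay above the highest sgScramble tumor, which was so for 11.3% of all genes. Pdcd1lg2 was the exception. The number of calls depended on which tumor was left out. With sgScramble tumor 4, icOVA tumor 16 or icOVA tumor 18 left out, 8, 9 and 7 of the 10 genes were called. In these fits 862 of 17880, 1014 of 17247 and 615 of 17185 genes were called higher, against 588 of 17489 with all tumors. Without sgScramble tumor 1, sgScramble tumor 5, icOVA tumor 15 or icOVA tumor 2, 0 of the 10 genes were called, although 10, 9, 9 and 9 of them had an unadjusted p below 0.05 in edgeR's test, and without these tumors 0, 0, 0 and 6 of all genes were called higher.

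**Figure D1:**
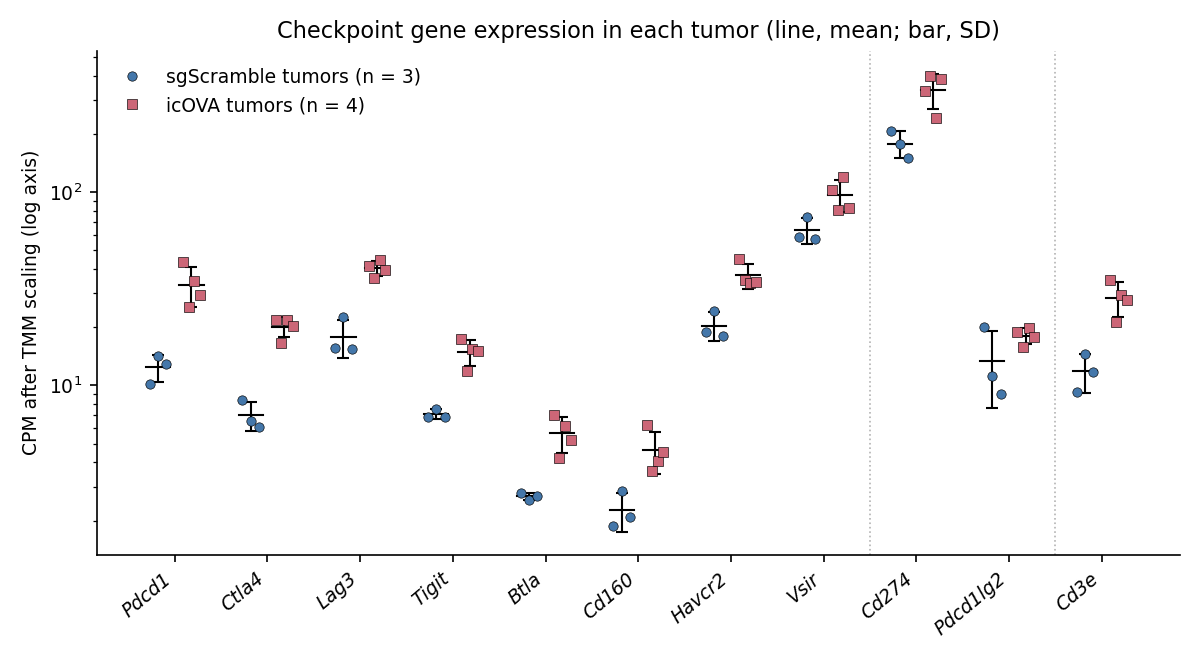
CPM after TMM scaling, on a log axis, of the 8 receptor genes, the genes of both PD-1 ligands and Cd3e in each of 3 sgScramble tumors (circles) and 4 icOVA tumors (squares), with the mean (line) and SD (bar) of each group. The groups are apart for every gene shown except Pdcd1lg2, where sgScramble tumor 1 lies above all icOVA tumors.

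Ctla4 (chr1:60887000-60915832 on GRCm38, plus strand) encodes a receptor that takes CD80 and CD86 from the costimulatory receptor CD28, and it had the highest fold change of the 10 genes. In sgScramble tumors 1, 4 and 5 it had 8.38, 6.56 and 6.08 CPM, against 21.9, 16.6, 21.8 and 20.4 CPM in icOVA tumors 15, 16, 18 and 2, an order kept for every gene below. The lowest icOVA tumor was thus well above the highest sgScramble tumor. The log2 fold change was 1.52 (SE 0.16, edgeR adjusted p = 0.0203), and the 95% interval ran from 1.16 to 1.89. Pdcd1 (chr1:94038305-94052553, minus strand) encodes PD-1, which damps signals from the T cell receptor and CD28. It had 10.2, 14.1 and 12.9 CPM in sgScramble tumors and 43.5, 25.5, 34.5 and 29.4 CPM in icOVA tumors, again without overlap. Its mean was 12.4 ± 2.01 CPM (SD, n = 3) in sgScramble tumors and 33.2 ± 7.77 CPM (SD, n = 4) in icOVA tumors, which gave a log2 fold change of 1.42 (SE 0.20, edgeR adjusted p = 0.0230).

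Lag3 (chr6:124904361-124911705, minus strand), a receptor related to CD4 that binds MHC class II, had 15.7, 22.5 and 15.3 CPM in sgScramble tumors and 41.2, 35.8, 44.5 and 39.7 CPM in icOVA tumors. The icOVA tumors were close to each other, at 40.3 ± 3.61 CPM (SD, n = 4), and the log2 fold change was 1.17 (SE 0.15, edgeR adjusted p = 0.0230). Tigit (chr16:43648867-43664146, minus strand), which competes with the activating receptor CD226 for the poliovirus receptor, had 6.91, 7.60 and 6.84 CPM in sgScramble tumors and 17.4, 11.8, 15.4 and 15.1 CPM in icOVA tumors. Here the sgScramble tumors were nearly alike and icOVA tumor 16 was the lowest of its group, and the log2 fold change was 1.07 (SE 0.15, edgeR adjusted p = 0.0230).

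Btla and Cd160, whose proteins share the ligand HVEM, had few counts in sgScramble tumors. Btla (chr16:45224315-45257670, plus strand) had 2.76, 2.55 and 2.69 CPM, from 84 to 96 counts, in sgScramble tumors and 6.996, 4.21, 6.16 and 5.25 CPM in icOVA tumors. It was called, with a log2 fold change of 1.08 (SE 0.20, edgeR adjusted p = 0.0314). Cd160 (chr3:96798763-96829351, minus strand), found also on NK cells, had 1.87, 2.86 and 2.08 CPM in sgScramble tumors and 6.24, 3.61, 4.08 and 4.51 CPM in icOVA tumors. The groups did not overlap, and there were 65 to 94 counts in sgScramble tumors. At 1.02 (SE 0.25), its log2 fold change missed the threshold (edgeR adjusted p = 0.0542). It was below the threshold with DESeq2 (adjusted p = 0.00352) and among genes with at least 10 counts in every tumor (edgeR adjusted p = 0.0488), and with sgScramble tumor 4 or icOVA tumor 16 left out (1.23 and 1.12, edgeR adjusted p = 0.0430 and 0.0410).

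Havcr2 (chr11:46454935-46481255, plus strand) encodes TIM-3, which is found on T cells and on macrophages and dendritic cells. It had 19.0, 24.3 and 17.9 CPM in sgScramble tumors and 45.1, 35.0, 33.9 and 34.3 CPM in icOVA tumors, with icOVA tumor 15 above the other three. The log2 fold change was 0.86 (SE 0.15, edgeR adjusted p = 0.0277). Vsir (chr10:60346851-60372684, plus strand), the gene of VISTA, had 58.4, 74.5 and 57.2 CPM in sgScramble tumors and 103, 81.2, 120 and 83.1 CPM in icOVA tumors. The groups did not overlap, but the log2 fold change of 0.61 (SE 0.16, 95% interval 0.23 to 0.99) was not called (edgeR adjusted p = 0.0662), except with DESeq2 (adjusted p = 0.00654) and with sgScramble tumor 4 left out (log2 fold change 0.75, edgeR adjusted p = 0.0483) or icOVA tumor 16 left out (0.69, edgeR adjusted p = 0.0439). Vsir lies inside the gene Cdh23 on the opposite strand without shared exon bases, and Cdh23 had 34 to 62 counts per tumor.

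The genes of the PD-1 ligands lie side by side on chromosome 19, and only Cd274 was called. Cd274 (chr19:29367455-29388095, plus strand) had 207, 178 and 149 CPM in sgScramble tumors and 333, 397, 242 and 385 CPM in icOVA tumors. Every icOVA tumor was above every sgScramble tumor, and the log2 fold change was 0.93 (SE 0.19, edgeR adjusted p = 0.0367). Besides the tumors without which none of the checkpoint genes was called, leaving out sgScramble tumor 4 also ended this call (0.94, edgeR adjusted p = 0.0554). An antisense gene that shares 511 exon bases with Cd274, AC119228.1, had at most 18 counts per tumor. Pdcd1lg2 (chr19:29410919-29471161, plus strand) had 19.98, 11.2 and 9.05 CPM in sgScramble tumors and 18.9, 15.9, 19.8 and 17.8 CPM in icOVA tumors. The groups overlapped because sgScramble tumor 1 was above all icOVA tumors, while the other sgScramble tumors were below all of them. The log2 fold change was 0.43 (SE 0.26, 95% interval -0.16 to 1.02, edgeR adjusted p = 0.311), and without sgScramble tumor 1 it was 0.84 and still not called (edgeR adjusted p = 0.115). The antisense gene A930007I19Rik, which overlaps Pdcd1lg2 but shares no exon bases with it, had 55 to 72 counts in sgScramble tumors and 127 to 170 counts in icOVA tumors (log2 fold change 1.16, SE 0.19, edgeR adjusted p = 0.0271).

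Cd274 was compared with Pdcd1lg2 within each tumor. There were 10.4, 15.9 and 16.5 Cd274 counts per Pdcd1lg2 count in sgScramble tumors and 17.6, 25.0, 12.2 and 21.6 in icOVA tumors, so that the groups overlapped. The mean log2 ratio was 3.80 ± 0.37 (SD, n = 3) and 4.21 ± 0.45 (SD, n = 4), and the difference of 0.40 was within the spread between tumors (exact two-sided permutation test, p = 0.229, where 3 against 4 tumors cannot give a p below 0.0571). Of the 5 protein-coding genes with a row on either side of the pair, 9 of 10 were tested and 0 were called in either direction by edgeR, where 1 had an unadjusted p below 0.05, or by limma-voom, and 1 was called by DESeq2. Their median log2 fold change was 0.08. The 3 with the highest CPM were Jak2, a kinase of interferon receptors (log2 fold change 0.13, SE 0.11, adjusted p = 0.474), Ak3, a mitochondrial adenylate kinase (-0.23, SE 0.15, adjusted p = 0.342), and Ermp1, a peptidase of the endoplasmic reticulum (0.08, SE 0.11, adjusted p = 0.662), all from edgeR.

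Levels were compared between genes as CPM per kilobase of annotated exon. Cd274 had the highest level in both groups, at 49.2 ± 7.98 CPM per kilobase (SD, n = 3) in sgScramble tumors and 93.6 ± 19.5 CPM per kilobase (SD, n = 4) in icOVA tumors, above 94.7% and 97.5% of the 17350 genes with a length. With all annotated exons as the length, Vsir came next, at 12.6 ± 1.92 and 19.3 ± 3.63 CPM per kilobase. In sgScramble tumors the levels of Lag3, Tigit, Havcr2, Pdcd1lg2 and Pdcd1 followed at means from 8.47 to 6.43 CPM per kilobase, and each of these down to Pdcd1lg2 overlapped with the next in the order. Pdcd1 did not overlap with Ctla4, which was lower, at 3.01 ± 0.52 CPM per kilobase, and Cd160 and Btla were the lowest, at 0.86 ± 0.20 and 0.79 ± 0.03 CPM per kilobase, and overlapped with each other. In icOVA tumors Vsir, Lag3, Pdcd1, Tigit and Havcr2 overlapped from one to the next, with means from 19.3 to 13.6 CPM per kilobase. Pdcd1lg2 and Ctla4 followed at 9.22 ± 0.85 and 8.66 ± 1.05 CPM per kilobase and overlapped, and Cd160 and Btla were again the lowest, at 1.75 ± 0.43 and 1.67 ± 0.35 CPM per kilobase. With the length of the longest transcript in place of all exons, the order changed in 3 places in sgScramble tumors and in 2 places in icOVA tumors, where Lag3 came before Vsir.

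**Figure D2:**
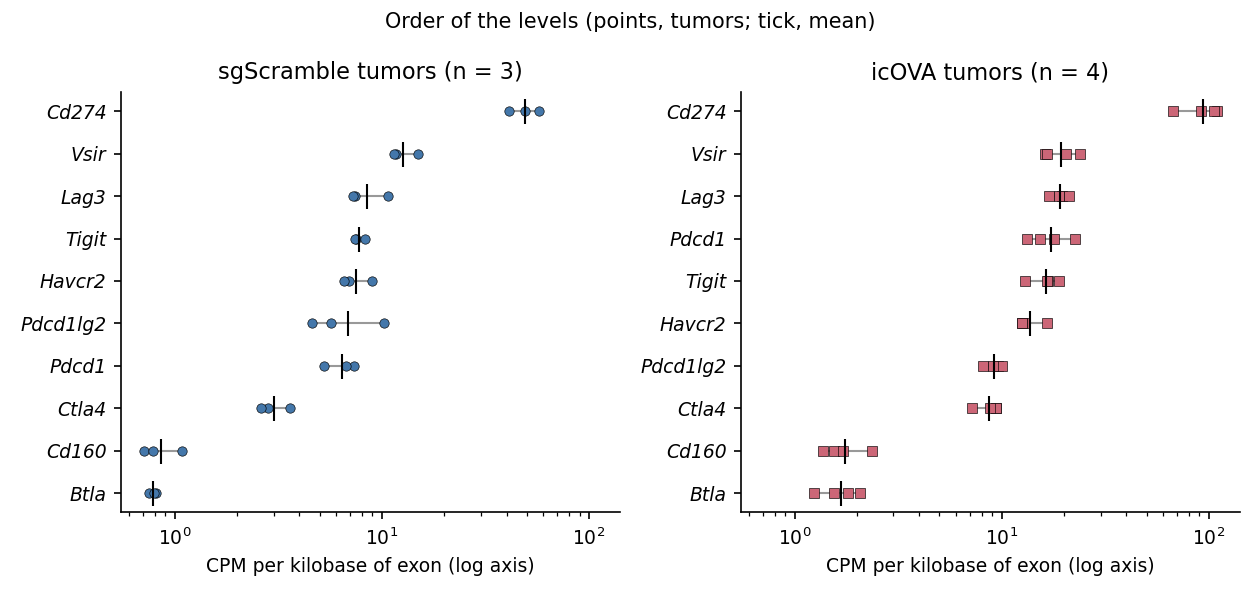
Level of each gene as CPM per kilobase of annotated exon, on a log axis, in 3 sgScramble tumors (left) and 4 icOVA tumors (right), ordered by the mean (tick), with a point for each tumor. Cd274 is the highest and Cd160 and Btla are the lowest in both groups, and the genes between overlap with their neighbours over much of the order.

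The tumors of a group differed in which genes were high. Among icOVA tumors, tumor 16 had the lowest CPM for 8 of the 10 genes and tumor 15 the highest for 6. Tumor 16 also had the lowest Cd3e, at 21.3 CPM, and tumor 15 the highest, at 35.2 CPM. Cd274 ran the other way, being highest in tumor 16 and lowest in tumor 18. The summed CPM of 6 markers of the cancer epithelium was 5072 in tumor 16 and 2910 in tumor 18, and the summed CPM of 4 fibroblast markers was 3682 in tumor 16 and 22210 in tumor 18. Their part in the result was not tested.

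T cell markers were higher in icOVA tumors together with the checkpoint genes, and some macrophage markers were. The summed CPM of 7 T cell markers was 84.1 to 135 in sgScramble tumors and 186 to 292 in icOVA tumors, and 6 of the 7 genes were called. Cd3e, an invariant chain of the T cell receptor complex, had 9.21, 14.6 and 11.7 CPM in sgScramble tumors and 35.2, 21.3, 29.4 and 27.7 CPM in icOVA tumors (log2 fold change 1.27, SE 0.21, edgeR adjusted p = 0.0271). The summed CPM of 6 macrophage markers was 579 to 782 in sgScramble tumors and 933 to 1093 in icOVA tumors, and 2 of the 6 genes, Cd68 and Itgam, were called, while Adgre1, Mrc1 and Cd14 overlapped between the groups and Cd14 had a log2 fold change of 0.07 (edgeR adjusted p = 0.833). Csf1r did not overlap between the groups but was not called (edgeR adjusted p = 0.0524). DESeq2 called 4 of the 6 macrophage markers higher and limma-voom 3, and 5 had an unadjusted p below 0.05 in edgeR's test. The sums were not tested. Sums over markers of NK cells (13.5 to 18.9 and 16.2 to 41.4), B cells (1.24 to 3.07 and 1.35 to 4.43), dendritic cells (82.9 to 107 and 94.2 to 139) and neutrophils (46.5 to 91.9 and 78.8 to 109) overlapped between sgScramble and icOVA tumors. So did the sums for the cancer epithelium (4464 to 4706 and 2910 to 5072), fibroblasts (4120 to 10294 and 3682 to 22210) and endothelium (131 to 210 and 170 to 408). Of the NK cell markers 1 of 4, Eomes, was called, and of the other lists 0 genes were called by edgeR or limma-voom, although DESeq2 called 2 dendritic cell and 3 endothelial genes, and 3 dendritic cell, 1 neutrophil and 3 endothelial genes had an unadjusted p below 0.05 in edgeR's test. No marker in these lists was at 0 in any tumor. The part of T cells, macrophages and other cells in the higher checkpoint gene expression was not tested beyond the comparison with Cd3e.

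Relative to Cd3e, no checkpoint gene was called higher in icOVA tumors. The edgeR fit was repeated with each library scaled to its Cd3e count, which ran from 320 to 1302, in place of TMM. In this fit 0 of the 10 genes were called higher and 2, Pdcd1lg2 and Vsir, were called lower, against 0.315% and 84.2% of all genes. For the higher direction 0 of the 10 had an unadjusted p below 0.05, and DESeq2 and limma-voom on this scale also called 0 higher. The median over the 10 genes was -0.24 and that over all genes -1.27, which is the log2 fold change of Cd3e itself with the opposite sign. The SEs of the 10 genes ran from 0.27 to 0.36. Each tumor's Cd3e count enters all of its values, and edgeR estimates the variance of a gene with information from the other genes. These SEs and p values thus do not measure the spread of a gene's own ratio alone. Counts per Cd3e count were without overlap and lower in icOVA tumors for 3 of the 10 genes, Pdcd1lg2, Vsir and Cd160, as they were for 80.9% of all genes. The share of checkpoint genes called lower was thus below that of all genes. Scaling to Cd3e moved all genes down together, so this follows from their higher values on the library scale and is not a separate result.

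**Figure D3:**
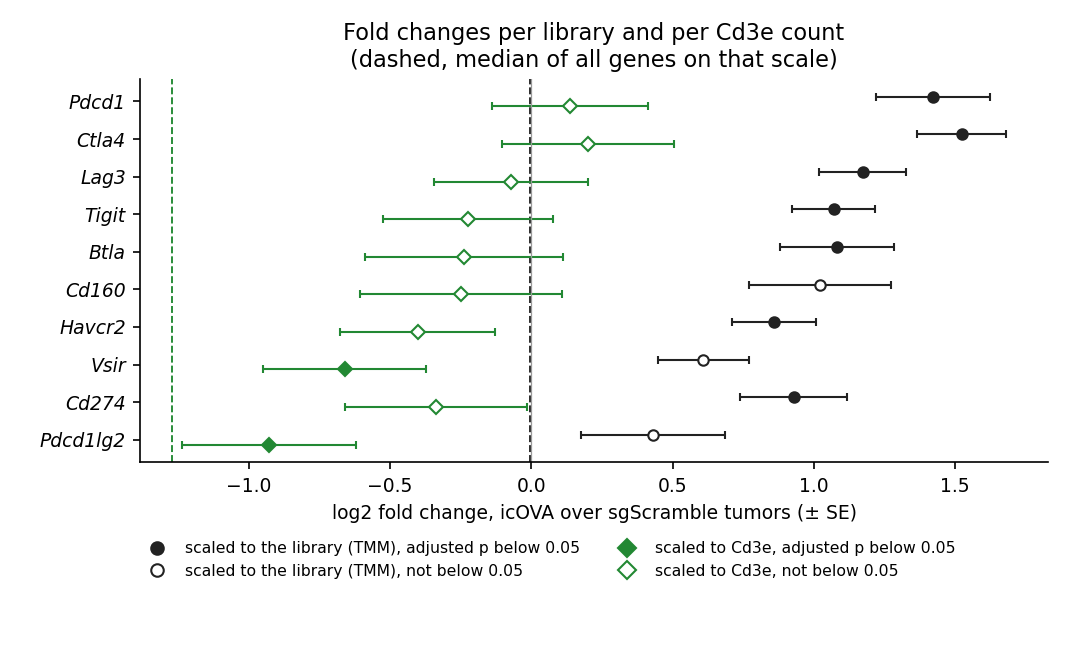
Log2 fold change of icOVA over sgScramble tumors with its SE for each gene, scaled to the library by TMM (black circles) and scaled to Cd3e (green diamonds), with filled symbols where the adjusted p was below 0.05 and dashed lines at the medians of all genes, -0.00 and -1.27. On the Cd3e scale all 10 genes lie to the right of the median of all genes, and only Vsir and Pdcd1lg2 are filled.

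Pdcd1 had between 0.97 and 1.24 counts per Cd3e count in all tumors. In sgScramble tumors 1, 4 and 5 there were 1.11, 0.97 and 1.10 Pdcd1 counts per Cd3e count, and icOVA tumors 15, 16, 18 and 2 had 1.24, 1.20, 1.17 and 1.06. The log2 fold change relative to Cd3e was 0.14 (SE 0.28, edgeR adjusted p = 0.639), with a 95% interval of -0.42 to 0.69. The SD of the Pdcd1 ratio was 0.078 in sgScramble tumors and 0.076 in icOVA tumors. An exact two-sided permutation test of its log2 ratio gave p = 0.171. Ctla4 had 0.91, 0.45 and 0.52 counts per Cd3e count in sgScramble tumors and 0.62, 0.78, 0.74 and 0.73 in icOVA tumors. Here sgScramble tumor 1 was the highest of all and the other sgScramble tumors were the lowest. The log2 fold change was 0.20 (SE 0.31, edgeR adjusted p = 0.534), and without sgScramble tumor 1 it was 0.57 (edgeR adjusted p = 0.119).

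Lag3 had 1.70, 1.55 and 1.32 counts per Cd3e count in sgScramble tumors and 1.17, 1.68, 1.51 and 1.43 in icOVA tumors, with icOVA tumor 15 below and the others among the sgScramble tumors, and a log2 fold change of -0.07 (SE 0.27, edgeR adjusted p = 0.807). Its sign turned when Cd8a or Ptprc, the CD45 gene of all leukocytes, was the reference (0.16 and 0.11) and without sgScramble tumor 1 or icOVA tumor 15 (0.016 and 0.017). Tigit had 0.75, 0.52 and 0.59 counts per Cd3e count in sgScramble tumors and 0.49, 0.56, 0.52 and 0.55 in icOVA tumors (log2 fold change -0.22, SE 0.30, edgeR adjusted p = 0.484). Btla ran from 0.18 to 0.30 in sgScramble tumors and from 0.19 to 0.21 in icOVA tumors (log2 fold change -0.24, SE 0.35, edgeR adjusted p = 0.522). The icOVA tumors differed little among themselves in both ratios, with SDs of 0.03 for Tigit and 0.01 for Btla. Cd160 had 0.20, 0.20 and 0.18 counts per Cd3e count in sgScramble tumors and 0.18, 0.17, 0.14 and 0.16 in icOVA tumors. Its ratios did not overlap, by the margin of 0.1781 in sgScramble tumor 5 over 0.1774 in icOVA tumor 15. The log2 fold change of -0.25 (SE 0.36) was not called (adjusted p = 0.514). With the groups apart by this margin, the exact two-sided permutation test of its log2 ratio gave the smallest p possible with the doubled one-sided p (0.0571).

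Havcr2 had 2.06, 1.67 and 1.54 counts per Cd3e count in sgScramble tumors and 1.28, 1.64, 1.15 and 1.24 in icOVA tumors, of which 3 were below the sgScramble tumors (log2 fold change -0.40, SE 0.27, edgeR adjusted p = 0.164). Vsir had 6.34, 5.12 and 4.90 counts per Cd3e count in sgScramble tumors and 2.92, 3.81, 4.07 and 2.998 in icOVA tumors, without overlap. The log2 fold change of Vsir was 0.61 on the library scale, and relative to Cd3e it was -0.66 (SE 0.29, edgeR adjusted p = 0.0317). It was not called with Ptprc or Cd8a as the reference (adjusted p = 0.0524 and 0.233 from edgeR) or without sgScramble tumor 1, sgScramble tumor 5, icOVA tumor 15 or icOVA tumor 2 (-0.54, -0.73, -0.59 and -0.60), and its exact permutation p was 0.0571.

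Cd274 had 22.5, 12.2 and 12.8 counts per Cd3e count in sgScramble tumors and 9.47, 18.6, 8.22 and 13.9 in icOVA tumors, so that the groups overlapped. Its log2 fold change relative to Cd3e was -0.34 (SE 0.32, 95% interval -0.98 to 0.31, edgeR adjusted p = 0.323), was 0.00 without sgScramble tumor 1, and was called lower without icOVA tumor 16 (-0.59, edgeR adjusted p = 0.0464). Pdcd1lg2 had 2.17, 0.77 and 0.78 counts per Cd3e count in sgScramble tumors and 0.54, 0.74, 0.67 and 0.64 in icOVA tumors. Its log2 fold change was 0.43 on the library scale, below the 1.27 of Cd3e. Relative to Cd3e it was -0.93, the lowest of the 10 genes (SE 0.31, edgeR adjusted p = 0.00543), with an exact permutation p of 0.0571. Without sgScramble tumor 1, whose ratio was far above the rest, the log2 fold change was -0.25 and was not called (edgeR adjusted p = 0.477). This tumor had the lowest Cd3e count, 320, and the highest ratio of its group for all 10 genes.

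**Figure D4:**
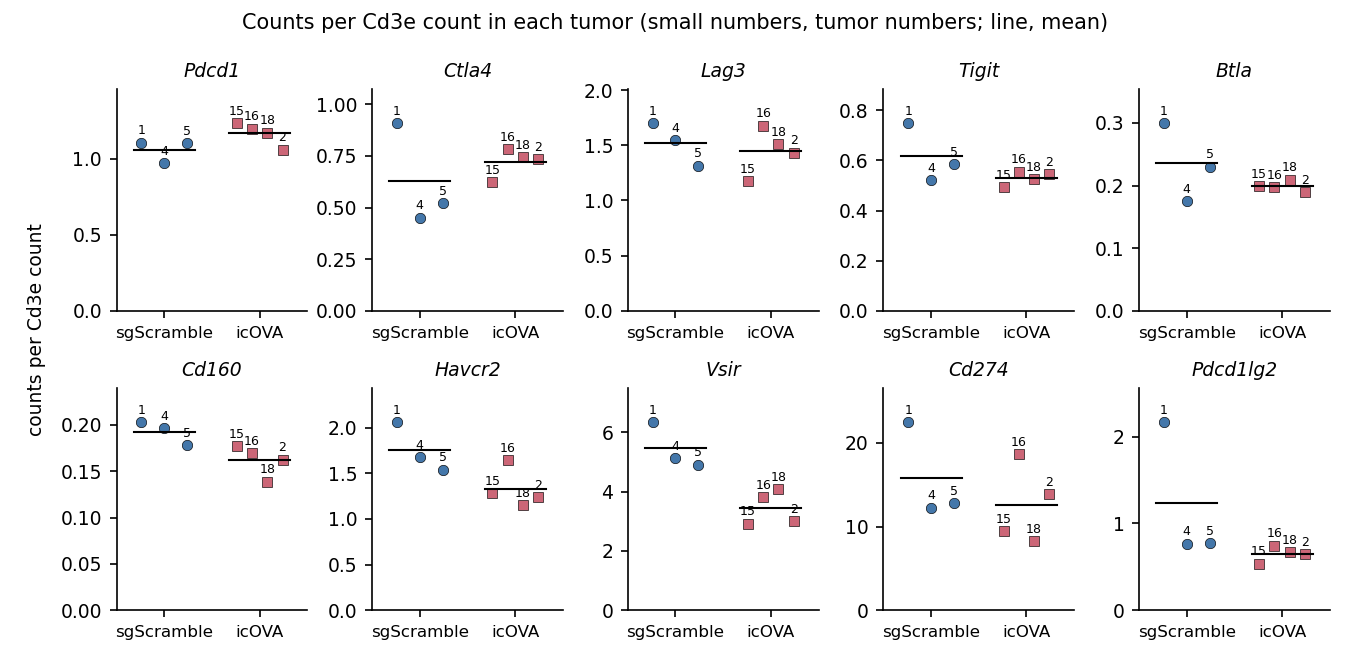
Counts of each gene per Cd3e count in sgScramble tumors 1, 4 and 5 (circles) and icOVA tumors 15, 16, 18 and 2 (squares), with the mean of each group as a line and axes that start at 0. Pdcd1 lies near 1 in all 7 tumors, sgScramble tumor 1 is the highest of its group in every panel, and the groups are apart for Cd160, Vsir and Pdcd1lg2.

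**Figure D5:**
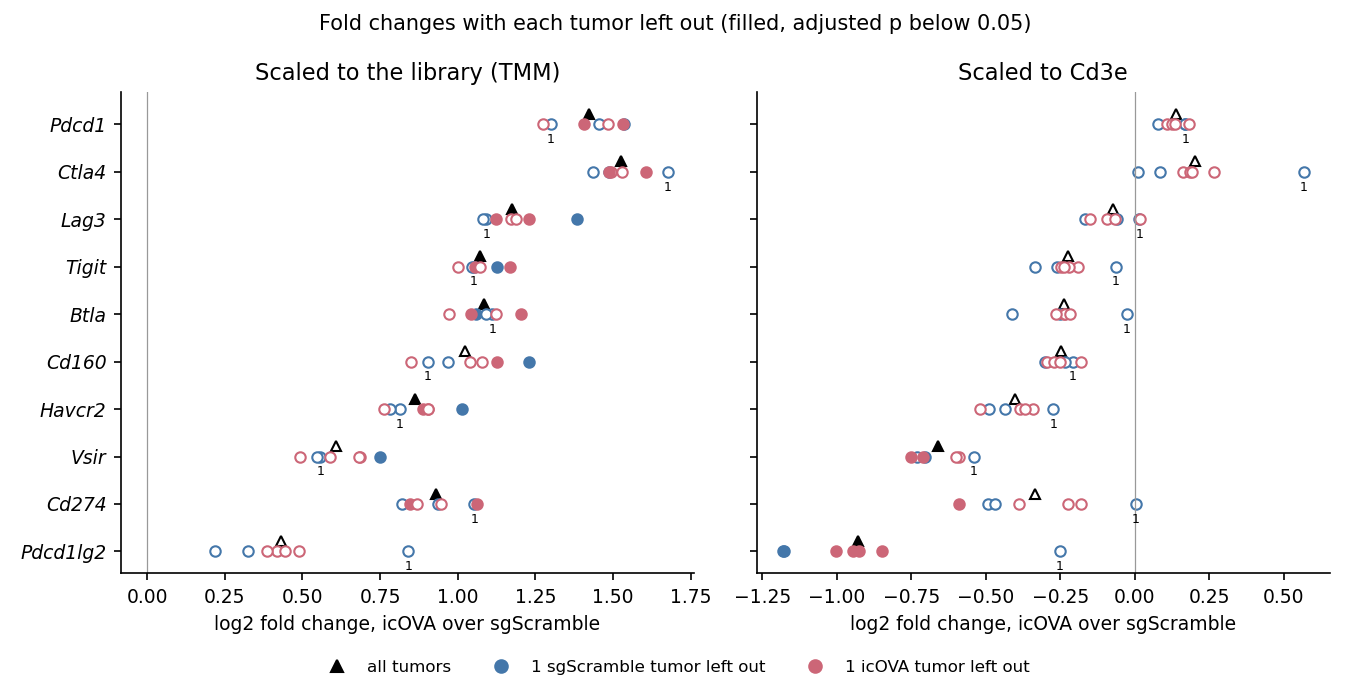
Log2 fold changes of icOVA over sgScramble tumors with all tumors (triangles) and without each single tumor (circles, colored by the group of that tumor, the value without sgScramble tumor 1 marked 1), on both scales and filled where the adjusted p was below 0.05. On the library scale all values lie above 0, while on the Cd3e scale the values without sgScramble tumor 1 stand apart for Ctla4, Cd274 and Pdcd1lg2.

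Genes that act with the checkpoints were grouped into 5 lists, chosen like the 10 genes with earlier results of these data known. Of their 46 tested genes, 16 (34.8%) were called higher, against 3.36% of all genes. DESeq2 called 24 of them higher and limma-voom 11. In the other direction 0 were called, against 2.54%, in edgeR's test, where 3 had an unadjusted p below 0.05 in the lower direction. DESeq2 and limma-voom also called 0 lower.

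Of the ligands and partners of the receptors, 5 of 15 tested genes were called higher, and the list's median log2 fold change was 0.01, near that of all genes. Cd80 (0.86, SE 0.15, adjusted p = 0.0271) and Cd86 (0.58, SE 0.07, adjusted p = 0.0230), the ligands shared by CTLA-4 and CD28, were both called by edgeR. Cd86 differed little between tumors, at 28.4 ± 1.17 CPM (SD, n = 3) in sgScramble tumors and 42.3 ± 1.11 CPM (SD, n = 4) in icOVA tumors. Tnfrsf14, which encodes HVEM, the ligand of BTLA and CD160, was called at 0.80 (SE 0.16, edgeR adjusted p = 0.0343). Selplg, which encodes PSGL-1, a partner of VISTA, was called at 0.85 (SE 0.18), and Lgals3, which encodes galectin-3, a partner of LAG-3, at 0.41 (SE 0.08). The abundant genes Hmgb1 and Lgals9, whose proteins are partners of TIM-3, and Bag6 had log2 fold changes of 0.01, -0.10 and -0.16 and were not called.

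Of the 5 receptors and ligands that share those partners, edgeR called 2 higher, DESeq2 4 and limma-voom 1. Cd28, the costimulatory rival of Ctla4, had 7.28 ± 1.05 CPM (SD, n = 3) in sgScramble tumors and 20.9 ± 5.51 CPM (SD, n = 4) in icOVA tumors, which gave a log2 fold change of 1.52 (SE 0.22, edgeR adjusted p = 0.0230). Cd226, the activating rival of Tigit, was called at 1.24 (SE 0.26, edgeR adjusted p = 0.0381). The values for Cd28 and Cd226 lay beside those of Ctla4 (1.52) and Tigit (1.07), and the differences within these pairs were not tested. Cd96 (0.96), Pvrig (1.14) and Tnfsf14 (0.51) were not called.

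Among 11 other inhibitory receptors and ligands, 4 were called higher. Cd5, which restrains T cell receptor signals, had a log2 fold change of 1.26 (SE 0.20), Klrc1, which encodes the NKG2A receptor of NK and CD8+ T cells, of 1.04 (SE 0.19), Sirpa, the macrophage receptor for CD47, of 1.01 (SE 0.17), and Cd200, a ligand that restrains myeloid cells, of 0.94 (SE 0.20). The abundant genes Cd47 (0.18) and Cd276 (0.06) and the ligand gene Vtcn1 (-0.87, SE 0.35, edgeR adjusted p = 0.161) were not called. Of 7 signalling molecules of inhibitory receptors, 4 were called higher: Ubash3a, which encodes a T cell phosphatase (1.32, SE 0.30), Dok2, an adaptor (0.71, SE 0.16), Cblb, a ubiquitin ligase (0.61, SE 0.09), and Ptpn6, which encodes the phosphatase SHP-1 (0.61, SE 0.13). Ptpn11, which encodes the phosphatase SHP-2 that binds PD-1, had 136 ± 2.51 CPM (SD, n = 3) in sgScramble tumors and 138 ± 3.17 CPM (SD, n = 4) in icOVA tumors and a log2 fold change of 0.02 (SE 0.055). Csk (0.14) and Inpp5d (0.64) were not called.

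The route from interferon gamma to Cd274 was looked at by 8 genes, of which 1 was called higher, against 3.36% of all genes. Ifng, the gene of the cytokine, had 10.6 ± 1.65 CPM (SD, n = 3) in sgScramble tumors and 22.4 ± 5.44 CPM (SD, n = 4) in icOVA tumors (log2 fold change 1.08, SE 0.22, edgeR adjusted p = 0.0352). Irf1, a transcription factor that carries its signal to Cd274, was not called (log2 fold change 0.30, SE 0.13, edgeR adjusted p = 0.182), nor was the kinase gene Jak1 (0.38, SE 0.10, edgeR adjusted p = 0.0705). DESeq2 called 3 of the 8 genes and limma-voom 0. In edgeR's test 5 of the 8 had an unadjusted p below 0.05 in the higher direction and 1 in the lower. Over all 17489 genes, 4763 had such a p in either direction. Every icOVA tumor was above every sgScramble tumor for 3 of the 8, against 11.3% of all genes. The list's median log2 fold change was 0.30.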

How the data were processed

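RNA from 7 tumors was sequenced, and the authors deposited a table of unnormalized counts for each gene and tumor. The labels give mm10 as the build and polyA RNA as the molecule, while the study's methods name a stranded total RNA kit. The aligner, counting tool, annotation and strand setting are not given in the sources used here. Identifiers were matched to GENCODE symbols, and coordinates are on GRCm38. The main fit used edgeR 4.0.16 under R 4.3.3, with filterByExpr (minimum count 10, minimum total 15), TMM and the quasi-likelihood test without covariates, tested on simulated data. The SE is the log2 fold change divided by the square root of F. A second fit scaled libraries to Cd3e. DESeq2 1.42.0, limma-voom (limma 3.58.1), other scalings, filters and references, and leaving out each tumor were alternatives. Single ratios were compared by exact permutation tests (scipy 1.17.1), those of single genes to Cd3e being added after the data were seen. The 10 genes and the lists were chosen with earlier results of these data known. The text names all 10 genes, Cd3e, and of each list the called genes and up to 3 others of highest CPM. A further gene of these lists is not reported here.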

Additional observations from a re-analysis of the deposited data

Results flagged for a closer look

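Among the 4 icOVA tumors, 30 values were examined for a tumor far from the others, and 2 were found, where chance would give about 1.5. The log2 CPM of Havcr2 was 5.50 in icOVA tumor 15, against 5.13, 5.08 and 5.10 in icOVA tumors 16, 18 and 2, so that the gap to the nearest tumor was 0.888 of the range. Without icOVA tumor 15 the log2 fold change of Havcr2 was 0.76, against 0.86 with all tumors. The log2 of the summed CPM of the B cell markers was 0.43 in icOVA tumor 16, against 2.15, 2.03 and 1.90 in icOVA tumors 15, 18 and 2 (gap 0.856 of the range). It lay within the range of the sgScramble tumors, from 0.31 to 1.62.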

How the results depend on the processing

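The checkpoint genes called higher ran from 0 to 9 with each tumor left out, against 7 with all tumors, and those called lower relative to Cd3e from 0 to 3, against 2. None was called higher relative to Cd3e in any of these fits. The genes of the 5 lists called higher ran from 0 to 18, against 16. Each of these counts was 0 without sgScramble tumor 1, and the first and the last also without sgScramble tumor 5, icOVA tumor 15 or icOVA tumor 2. The log2 fold changes themselves kept their sign on the library scale, the lowest being 0.22 for Pdcd1lg2 (sgScramble tumor 5 left out) and the highest 1.68 for Ctla4 (sgScramble tumor 1 left out). Relative to Cd3e the value of Cd274 ran from -0.59 without icOVA tumor 16, where it was called, to 0.0033 without sgScramble tumor 1, and that of Lag3 from -0.17 (sgScramble tumor 5 left out) to 0.016 without sgScramble tumor 1, 0.017 without icOVA tumor 15, 0.11 with Ptprc and 0.16 with Cd8a as the reference. With Ptprc or Cd8a 1 checkpoint gene, Pdcd1lg2, was called lower, where 14052 and 13160 of all 17488 genes were. The difference in the log2 ratio of Cd274 to Pdcd1lg2 ran from 0.19 to 0.60. Of 80 values of log2 fold change under other tools, scalings and filters, 77 stayed on their side of the threshold with their sign, and 3, of Cd160 and Vsir, passed it only under the alternative. The cause was not tested. With the longest transcript as the length, 4 of 20 levels moved by more than 1 SD. The lowest counts were those of Cd160 and Btla, from 65 to 96 in sgScramble tumors. The legend of the study's heat map calls these cells paired. No paired analysis was run, because the labels name no pairs and no tumor number occurs in both groups.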
